A study of Mus musculus with 9 samples.

Results

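Collagens are the main structural proteins of the extracellular matrix, and their genes are described here in brown adipose tissue of mice kept at room temperature or moved to acute cold. The members were all genes whose symbol in the deposited tables is Col, a number, the letter a and a number. There were 35 such genes among the 16937 genes listed in any table. The table comparing WT Cold with WT RT listed 35 of them among 16679 genes, the table comparing GCN2 KO Cold with WT Cold listed 32 among 16312, and the table comparing GCN2 KO Cold with WT RT listed 33 among 16560. Col8a2 and Col17a1 occurred in the first table only, and Col9a2 was missing from the second. A further 9 collagen symbols of the gene names table, among them Col2a1 and Col10a1, were in no table and were not analysed here.

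RNA was sequenced from 9 mice, 3 in each group. WT RT mice were wild type and stayed at 23 °C. WT Cold mice were wild type and GCN2 KO Cold mice carried a whole body deletion of Gcn2 (Eif2ak4), the kinase that senses uncharged tRNA, and both groups spent 8 h at 4 °C. All groups were on the C57Bl/6J background for 10 generations, were 12 to 23 weeks old, were housed singly for 5 days beforehand and, by the study's methods, mixed males and females. No room temperature GCN2 KO libraries were analysed here, so the change with cold was not compared between genotypes. Library codes in the deposited columns give no mouse number, and the letters A, B and C only tell the 3 libraries of a group apart. The WT RT codes begin differently from the cold codes, and since no source used here says what the prefix stands for, cold and whatever it marks cannot be told apart.

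Each library held between 27058799 and 30768064 reads on listed genes, and levels across groups are given as CPM, the reads of a gene scaled to that total. The targeted gene Eif2ak4 had 11.1, 12.6 and 13.0 CPM in WT RT, 6.46, 8.31 and 8.34 CPM in WT Cold, and 11.9, 12.7 and 11.8 CPM in the libraries labelled GCN2 KO Cold. It was therefore not lower in the last group (log2 fold change, log2FC, against WT Cold 0.78, with a standard error, SE, of 0.15; adjusted p = 0.0932 from limma and 0.0028 from DESeq2), and that group is called by its label throughout. Its reads are counted over all exons, the sources used here do not say which exons the deletion removes, and reads from exons that remain would still count. The title of 1 sample of this group also reads WT, while its genotype field gives GCN2 KO. Brown adipocyte markers were present in all libraries, with 18792 to 30175 CPM summed over 9 genes. Scaling to library totals instead of size factors moved the median log2FC of all genes from near 0 to -0.08 in WT Cold vs WT RT, to -0.12 in GCN2 KO Cold vs WT Cold and to -0.19 in GCN2 KO Cold vs WT RT. Levels in CPM hold these shifts, while the fold changes below are taken within a table on log2(normalized reads + 1), a scale that understates the change of low genes.

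A collagen molecule is a trimer of alpha chains wound into a helix, and the chain composition sets the type. Fibrillar collagens such as types I, III and V build the load-bearing fibrils of connective tissue, type IV forms the sheet-like network of basement membranes around adipocytes and vessels, and type VI makes beaded filaments that link cells to both. Fibril associated collagens sit on the surface of fibrils, multiplexins lie where basement membranes meet the interstitial matrix, and transmembrane collagens stay anchored in the cell. In adipose tissue the basement membrane and the type VI filaments envelop every fat cell, and fibroblasts, endothelial cells, mural cells and adipocytes all contribute chains.

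Several collagen genes lie side by side. In the RefSeq annotation of GRCm38.p6, with no other protein-coding gene between them, Col4a1 and Col4a2 are neighbours on chromosome 8, Col3a1 and Col5a2 and also Col4a4 and Col4a3 on chromosome 1, Col6a2 and Col6a1 on chromosome 10, Col6a6, Col6a5 and Col6a4 on chromosome 9, and Col4a6 and Col4a5 on chromosome X. Col4a1 and Col4a2, which rose together in cold as given below, are transcribed away from each other and their annotated starts overlap by 22 bases. These bases, at chr8:11312805-11312826 of GRCm38.p6 and read on the plus strand in the direction of Col4a2, are shown because both genes start within them, with capitals marking the GC box letters GGGCGG.

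Col4a1 and Col4a2 start overlap: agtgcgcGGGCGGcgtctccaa

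For the genes that fell, the 250 bases before the annotated start are shown for Col3a1 and Col1a2, abundant fibrillar chains, and for Col5a3 and Col15a1, which fell furthest. They are read 5′ to 3′ on the strand of the gene, and end at the base before the first transcribed base. Capitals mark whole matches, on either strand, to the CCAAT box letters CCAAT, the GC box letters GGGCGG, the TATA box letters TATAAA or the AP-1 letters TGACTCA. No match overlaps a match of another of these motifs in the bases shown. The windows are Col3a1 at chr1:45311288-45311537 (plus strand), Col1a2 at chr6:4505368-4505617 (plus strand), Col5a3 at chr9:20815068-20815317 (minus strand) and Col15a1 at chr4:47207762-47208011 (plus strand).

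Col3a1: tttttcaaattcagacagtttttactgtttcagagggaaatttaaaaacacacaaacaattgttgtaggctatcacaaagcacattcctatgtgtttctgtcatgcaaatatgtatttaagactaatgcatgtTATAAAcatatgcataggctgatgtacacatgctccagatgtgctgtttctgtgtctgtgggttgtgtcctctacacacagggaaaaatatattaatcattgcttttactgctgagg
Col1a2: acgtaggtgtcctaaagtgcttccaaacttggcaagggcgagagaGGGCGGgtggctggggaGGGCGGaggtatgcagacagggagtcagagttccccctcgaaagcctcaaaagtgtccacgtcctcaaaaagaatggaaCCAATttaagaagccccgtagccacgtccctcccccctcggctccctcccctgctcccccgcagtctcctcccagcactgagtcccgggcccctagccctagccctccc
Col5a3: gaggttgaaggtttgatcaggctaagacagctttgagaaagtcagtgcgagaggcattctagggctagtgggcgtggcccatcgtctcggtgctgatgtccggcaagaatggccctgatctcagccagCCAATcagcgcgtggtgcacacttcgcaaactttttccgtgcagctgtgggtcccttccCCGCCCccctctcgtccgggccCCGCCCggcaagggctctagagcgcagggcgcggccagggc
Col15a1: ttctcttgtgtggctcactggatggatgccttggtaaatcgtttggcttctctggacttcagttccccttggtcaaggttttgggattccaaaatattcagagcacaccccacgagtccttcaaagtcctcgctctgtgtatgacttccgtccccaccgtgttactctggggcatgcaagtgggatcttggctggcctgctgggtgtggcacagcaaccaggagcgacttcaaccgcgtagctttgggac

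The upstream bases of Col3a1 hold TATAAA, beginning 117 bases before the start. Those of Col1a2 hold GGGCGG beginning 205 and 188 bases before the start and CCAAT beginning 109 bases before it. In Col5a3 CCAAT begins 122 bases before the start and GGGCGG lies on the other strand 63 and 41 bases before it, while the Col15a1 bases hold none of these letters. RefSeq promoter windows of 300 bases (250 before and 50 after a start) were found for 30 of the 35 members, in 32 windows. GGGCGG occurred in 22 of the 32 windows (68.8%), against 35.7% of all 32851 windows, and CCAAT in 11 (34.4%) against 37.4%. TATAAA occurred in 4 (12.5%) against 13.6%, and TGACTCA in 1, that of Col6a1 (3.13%), against 5.20%. These matches describe letters and were not compared by any test.

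In WT RT, transcripts of a few chains made up most of the collagen signal. Levels between genes are compared as CPM per kilobase of exon. Col4a1 stood at 48.2 to 56.0 and Col3a1 at 45.7 to 49.9 CPM per kb, ranges that overlap, followed by Col4a2 at 34.6 to 39.1. Col6a1 (24.4 to 26.8) and Col1a1 (23.0 to 24.5) came next and also overlapped, then Col1a2 (18.7 to 21.5). Col5a3 (10.1 to 18.1), Col6a2 (13.2 to 13.9), Col15a1 (10.3 to 10.8), Col6a3 (7.34 to 8.82) and Col18a1 (6.33 to 6.97) formed a middle group. At the other end Col6a4, Col6a5, Col8a2, Col11a1 and Col17a1 were below 0.1 CPM per kb in every library of WT RT, and Col6a4 was covered by 1 read in WT RT C.

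**Figure D1:**
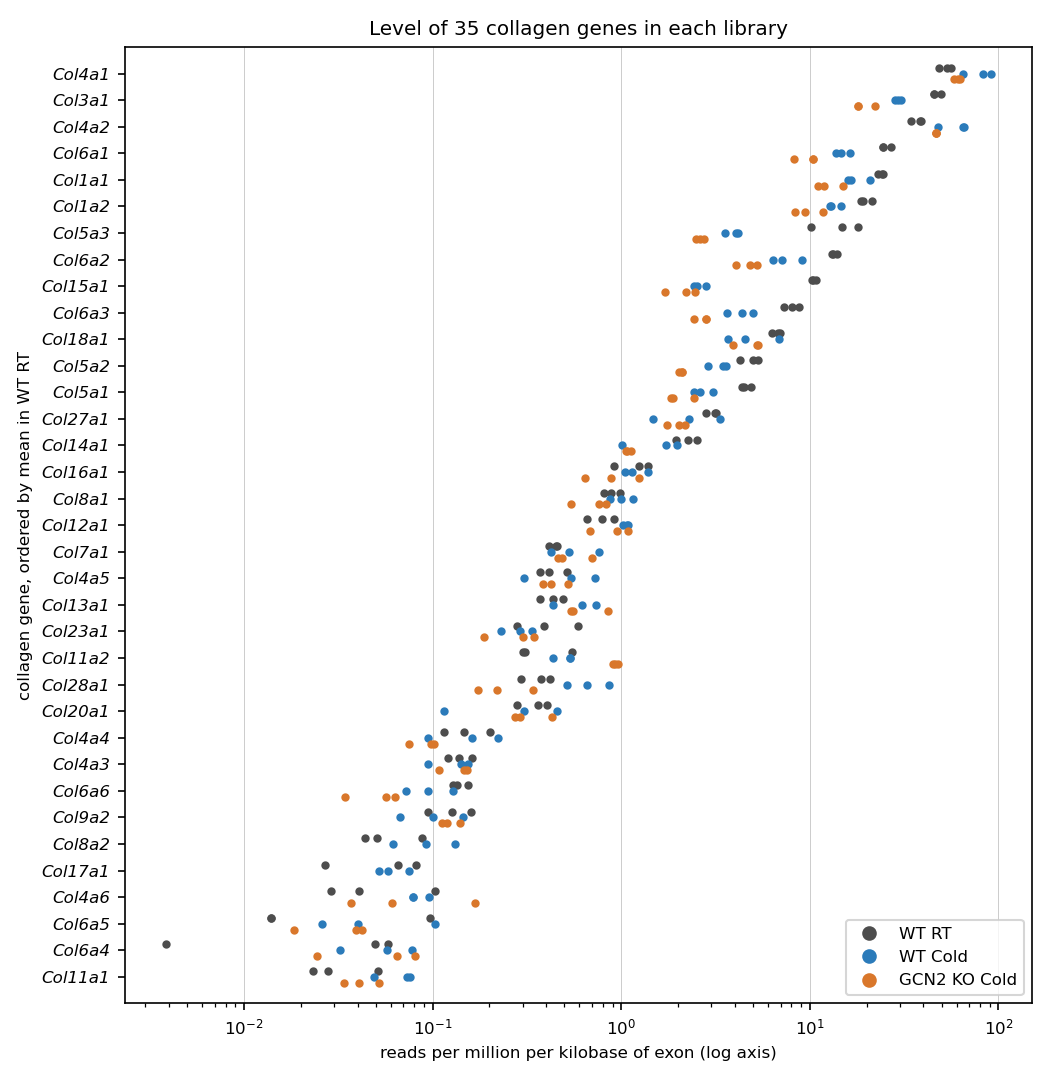
Level of each of the 35 collagen genes in CPM per kilobase of exon on a log axis, a point per library, ordered from top to bottom by the mean in WT RT. Col4a1 and Col4a2 shift to higher levels in the cold libraries, Col15a1 and Col5a3 shift furthest to lower levels, and the genes at the bottom scatter widely; Col8a2 and Col17a1 have no points for GCN2 KO Cold because its tables do not list them.

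In WT mice, both chains of the common type IV network rose in cold, while the chains of types I, III and V, the type VI chains Col6a1, Col6a2 and Col6a3 and the multiplexin chain Col15a1 fell. Members of a class did not all move alike, with log2FC values from -1.74 to 1.03 among fibrillar and from -0.82 to 1.02 among beaded filament collagens, and no difference between classes was tested. At an adjusted p under 0.05 from limma, 14 of 35 collagen genes differed between WT Cold and WT RT, 4 higher and 10 lower, against 27.7% of all genes tested (13.6% higher and 14.1% lower). With an absolute log2FC over 1 as well, 2 passed, Col15a1 and Col5a3, both lower, against 8.14% of all genes (2.99% higher and 5.15% lower). The median over the 35 genes was -0.05, beside 0.00 for all genes. It was -0.36 over the 24 genes with a mean of at least 50 normalized reads and 0.15 without WT Cold C. A fit of all 9 libraries was made on CPM over the genes listed for all 9. It gave -0.29 over 33 members, beside -0.08 for all genes. CPM scaling with all 35 members gave -0.13, also beside -0.08. Of the members, 18 of 35 had a fold change below 0 against 49.8% of all genes. Libraries did not overlap for 5 members that were higher and 10 that were lower in WT Cold, against 22.8% of all genes in each direction.

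**Figure D2:**
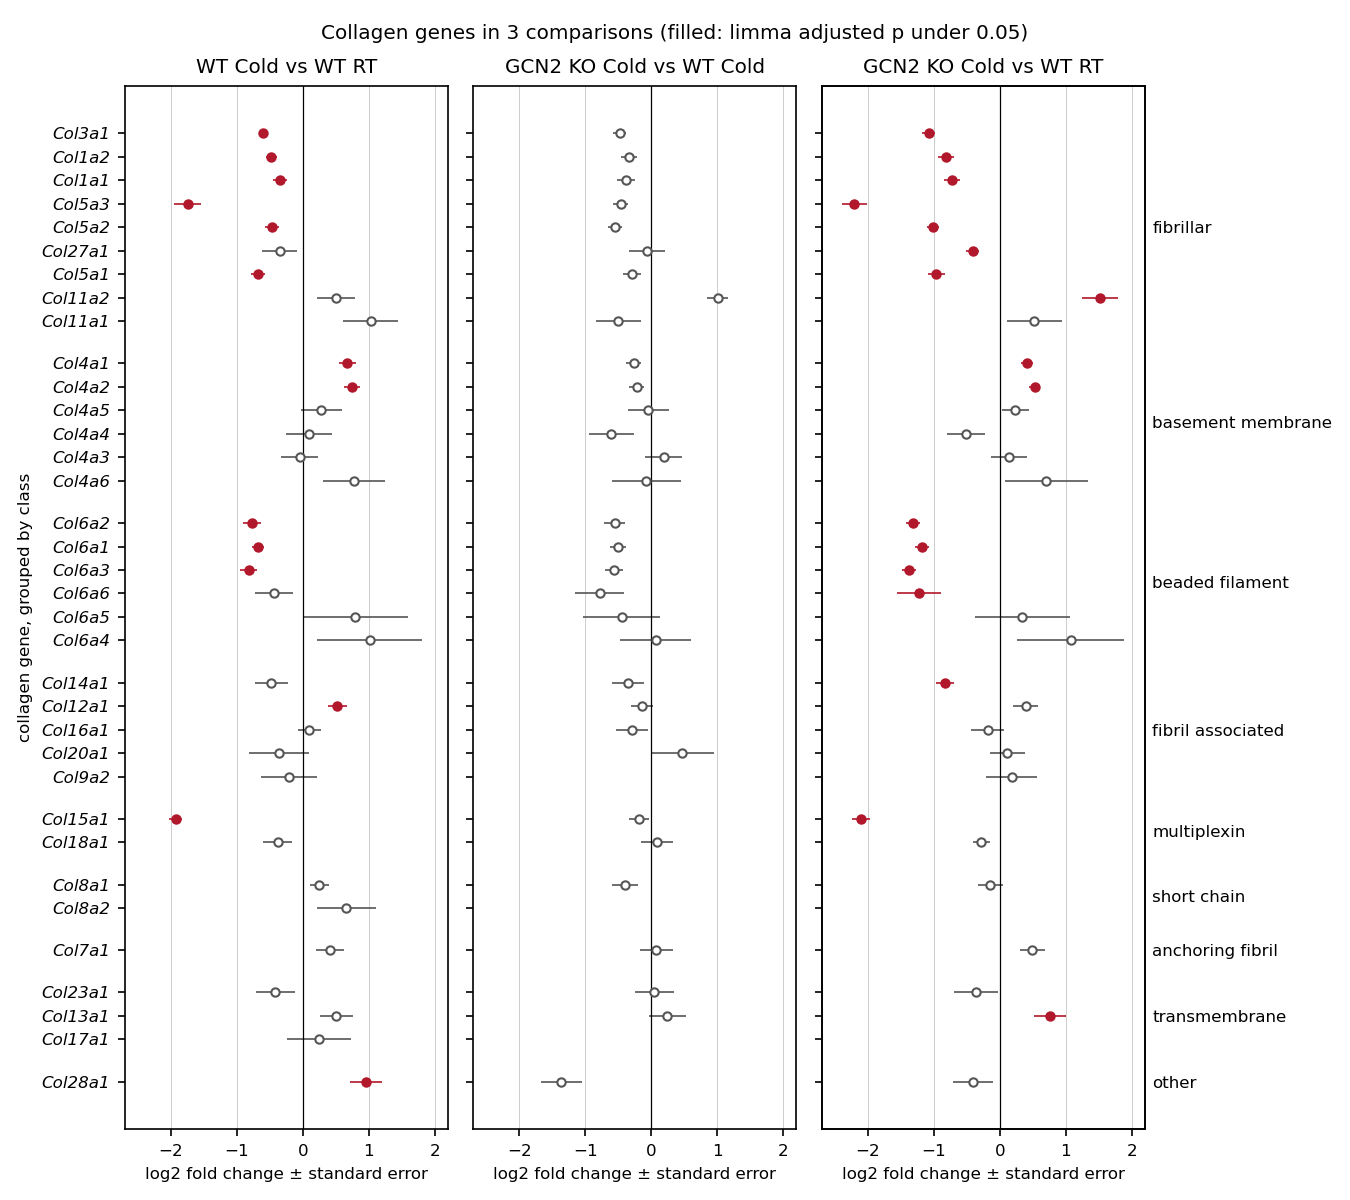
Log2 fold change with its SE for each collagen gene in the 3 comparisons, grouped by class, with filled symbols for an adjusted p under 0.05 from limma. In WT Cold vs WT RT and GCN2 KO Cold vs WT RT, the chains of types I, III and V, Col6a1, Col6a2, Col6a3 and Col15a1 lie left of 0 and Col4a1 and Col4a2 right of it, as do the low type VI chains Col6a4 and Col6a5 with unfilled symbols, and no symbol is filled in GCN2 KO Cold vs WT Cold.

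Col4a1, which encodes the alpha 1 chain of type IV collagen, had 360.0, 400.1 and 418 CPM in WT RT and 622, 680.1 and 485 CPM in WT Cold. Every WT Cold library was above every WT RT library, although WT Cold C was nearer to WT RT than A and B were. Its log2FC was 0.67 (SE 0.13, adjusted p = 0.0076), a 1.60-fold higher level. Col4a2, its partner in the heterotrimer, had 229, 254 and 259 CPM in WT RT and 432, 435 and 319 CPM in WT Cold, with the same library nearest to WT RT. Its log2FC was 0.75 (SE 0.12, adjusted p = 0.00446). Per kilobase, Col4a1 over Col4a2 was 1.41 ± 0.0220 (SD, n = 3) in WT RT and 1.34 ± 0.0552 (SD, n = 3) in WT Cold, and lay slightly lower in each WT Cold library (1.28 to 1.39) than in each WT RT library (1.39 to 1.43). The other type IV chains, which are restricted to particular basement membranes, were low in all groups. Col4a5 had 3.45, 2.80 and 2.49 CPM in WT RT and 4.87, 3.65 and 2.05 CPM in WT Cold. Col4a3 had 1.38, 1.20 and 1.61 against 1.42, 1.53 and 0.938 CPM, and Col4a4 had 2.13, 1.56 and 1.21 against 1.73, 2.36 and 1.01 CPM. Col4a6 had 0.821, 0.325 and 0.230 against 0.760, 0.626 and 0.625 CPM. None of these 4 chains passed the threshold, with adjusted p from 0.25 to 0.92, and the libraries of both groups overlapped in each.

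The fibrillar chains were lower in WT Cold in 6 of the 9 listed genes. Col3a1, the chain of the type III homotrimer, had 489.5, 448 and 450.1 CPM in WT RT and 299.9, 288 and 278 CPM in WT Cold. The groups were far apart relative to their spread, and the log2FC was -0.60 (SE 0.07, adjusted p = 0.00111). Col1a2 had 267, 237 and 233 CPM in WT RT and 181, 158 and 160.3 CPM in WT Cold (log2FC -0.47, SE 0.08, adjusted p = 0.00475). Col1a1, its partner in type I collagen, had 158, 151 and 161 CPM in WT RT and 137, 109 and 105 CPM in WT Cold. Its log2FC was -0.34 (SE 0.10, adjusted p = 0.0418). The call for Col1a1 was lost when WT Cold B, WT Cold C or any WT RT library was left out, with an adjusted p of up to 0.136.

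Type V collagen, which is built into type I fibrils and limits their diameter, fell in all 3 of its chains, with Col5a3 furthest. Col5a3 had 68.7, 123 and 101 CPM in WT RT and 24.1, 27.8 and 28.5 CPM in WT Cold, a log2FC of -1.74 (SE 0.20, adjusted p = 0.00114). WT RT A was the lowest library of its group and still far above the highest of WT Cold. Col5a1 had 41.3, 37.1 and 37.9 CPM in WT RT and 26.0, 22.2 and 20.6 CPM in WT Cold (log2FC -0.67, SE 0.10, adjusted p = 0.00314). Col5a2 had 47.9, 50.9 and 40.96 CPM in WT RT and 34.6, 27.7 and 33.1 CPM in WT Cold (log2FC -0.47, SE 0.11, adjusted p = 0.0172), and its adjusted p rose to between 0.0515 and 0.0629 without WT Cold B, WT RT A or WT RT B. The ratio of Col5a3 to Col5a1 per kilobase was 2.07, 4.15 and 3.33 in WT RT and 1.15, 1.56 and 1.72 in WT Cold, ranges that do not overlap. The remaining fibrillar genes did not pass. Col27a1 had 40.7, 41.5 and 36.6 CPM in WT RT and 29.9, 19.3 and 43.4 CPM in WT Cold, where library C lay above all WT RT libraries, and without WT Cold C its log2FC was -0.65 with an adjusted p of 0.0177. The cartilage chains Col11a1 and Col11a2 had log2FC values of 1.03 (adjusted p = 0.101) and 0.51 (adjusted p = 0.22), and Col11a2 passed without WT RT C (0.82, adjusted p = 0.0435).

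Type VI collagen fell in the 3 chains of its common heterotrimer. Col6a1 had 108, 118 and 107 CPM in WT RT and 64.3, 60.2 and 71.2 CPM in WT Cold (log2FC -0.68, SE 0.09, adjusted p = 0.00198). Col6a2 had 110.2, 116 and 109.5 CPM in WT RT and 59.4, 53.1 and 75.9 CPM in WT Cold (log2FC -0.76, SE 0.14, adjusted p = 0.00598). Col6a3, the large chain from which endotrophin is cleaved, had 87.8, 105 and 95.9 CPM in WT RT and 52.2, 43.4 and 59.6 CPM in WT Cold (log2FC -0.82, SE 0.13, adjusted p = 0.00421). In all 3 chains the libraries of the groups were separate and WT Cold C was the highest of its group. The chains Col6a4, Col6a5 and Col6a6, which can take the place of the alpha 3 chain, were at most 1.41 CPM. Col6a6 had 1.41, 1.24 and 1.18 CPM in WT RT and 1.17, 0.660 and 0.868 CPM in WT Cold. Col6a5 had 0.131, 0.910 and 0.131 against 0.380, 0.243 and 0.973 CPM, and Col6a4 had 0.492, 0.423 and 0.0328 against 0.276, 0.660 and 0.486 CPM. None of them passed (adjusted p from 0.30 to 0.49).

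The multiplexins Col15a1 and Col18a1, whose C-terminal fragments include restin and endostatin, differed from each other. Col15a1 had 65.1, 65.7 and 68.4 CPM in WT RT and 15.5, 16.1 and 17.9 CPM in WT Cold. Both groups were tight, and the log2FC of -1.92 (SE 0.10, adjusted p = 6.6e-05) left a level 0.263 times that of WT RT. Col18a1 had 44.5, 48.9 and 47.5 CPM in WT RT and 25.7, 32.0 and 48.1 CPM in WT Cold (log2FC -0.38, SE 0.22, adjusted p = 0.24), with WT Cold C inside the range of WT RT. Without WT Cold C its log2FC was -0.64 with an adjusted p of 0.00561. The ratio of Col15a1 to Col18a1 per kilobase was 1.57 ± 0.0715 (SD, n = 3) in WT RT and 0.545 ± 0.127 (SD, n = 3) in WT Cold.

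Outside these classes, 2 genes rose in WT Cold. Col28a1, a collagen found around the Schwann cells of peripheral nerves, had 2.07, 1.85 and 1.44 CPM in WT RT and 3.25, 4.24 and 2.54 CPM in WT Cold (log2FC 0.96, SE 0.25, adjusted p = 0.024). Col12a1, a fibril associated collagen, had 10.05, 13.9 and 11.98 CPM in WT RT and 16.6, 15.5 and 16.4 CPM in WT Cold (log2FC 0.53, SE 0.14, adjusted p = 0.0258). Neither group overlapped in either gene. The call for Col28a1 was lost without WT Cold A, WT Cold B, WT RT B or WT RT C (adjusted p up to 0.0883). That for Col12a1 was lost without WT Cold A, WT Cold B, WT RT A or WT RT C (up to 0.0731). Both calls were also lost in the limma fit of all 9 libraries on CPM (log2FC 0.87 and 0.44, adjusted p = 0.0539 and 0.0872). Col14a1, a fibril associated collagen of the type XII family, had 17.6, 13.7 and 15.9 CPM in WT RT and 12.1, 7.09 and 13.8 CPM in WT Cold (log2FC -0.48, SE 0.25, adjusted p = 0.19), and passed without WT Cold C (-0.69, adjusted p = 0.0455). The anchoring fibril gene Col7a1 had 4.66, 4.68 and 4.27 CPM in WT RT and 7.84, 5.46 and 4.34 CPM in WT Cold (log2FC 0.41, adjusted p = 0.18). Its groups overlapped in CPM, though not once divided by size factors, and it passed without WT Cold C (0.59, adjusted p = 0.0478). The other 8 genes (Col8a1, Col8a2, Col9a2, Col13a1, Col16a1, Col17a1, Col20a1 and Col23a1) had log2FC values from -0.41 to 0.66 and did not pass.

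**Figure D3:**
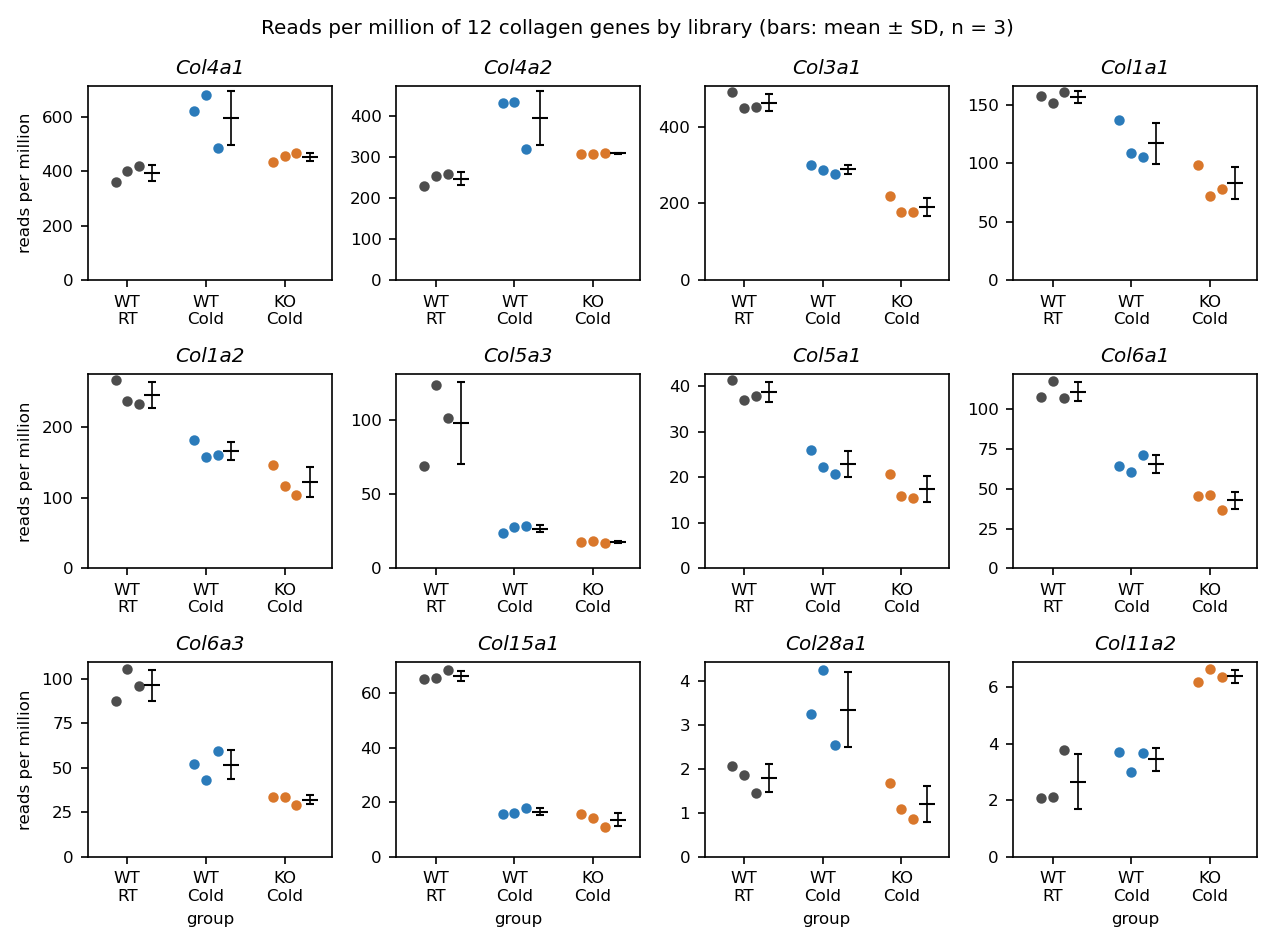
CPM of 12 collagen genes in each library, with the mean and SD of each group (n = 3) beside the points and axes that start at 0; KO Cold stands for the libraries labelled GCN2 KO Cold. Col15a1 falls from 65.1 to 68.4 CPM in WT RT to 15.5 to 17.9 in WT Cold, Col4a1 and Col4a2 are highest in WT Cold A and B, and Col11a2 is highest in GCN2 KO Cold.

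In the libraries labelled GCN2 KO Cold, the most abundant fibrillar and beaded filament chains were lower again than in WT Cold, by amounts that did not pass the adjusted threshold of the main test. No collagen gene had an adjusted p under 0.05 from limma in GCN2 KO Cold vs WT Cold, of 32 tested, against 0.405% of all genes. At an unadjusted p under 0.05 there were 10, 1 higher and 9 lower, against 15.3% of all genes (7.83% higher and 7.49% lower). edgeR also gave 0 genes at an adjusted p under 0.05, against 0.27% of all genes. DESeq2 on the recovered reads gave 8, with Col11a2 higher and Col3a1, Col5a2, Col5a3, Col6a1, Col6a2, Col6a3 and Col28a1 lower, against 3.22% of all genes. The limma fit of all 9 libraries, which was on CPM, gave 6, all lower (Col3a1, Col5a2, Col6a1, Col6a2, Col6a3 and Col28a1), against 2.57% of 16608 genes. Its median was -0.40 over 33 collagen genes, beside -0.12 for all genes. In the main fit the median over the 32 genes was -0.29, beside 0.00 for all genes. Of these, 24 had a fold change below 0, against 50.5% of all genes. Libraries did not overlap for 10 members that were lower and 1 that was higher, against 10.7% and 11.3% of all genes.

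Col3a1 had 219, 177 and 178 CPM in the libraries labelled GCN2 KO Cold, below the 278 CPM of the lowest WT Cold library. Its log2FC was -0.48 (95% interval -0.70 to -0.27, adjusted p = 0.0944 from limma and 0.00539 from DESeq2). Col5a2 had 20.2, 20.2 and 19.4 CPM (log2FC -0.55, 95% interval -0.79 to -0.30, adjusted p = 0.0944 from limma and 0.00563 from DESeq2). Both are neighbours on chromosome 1 and both sets of libraries were fully separate. Col5a3 had 17.8, 18.7 and 17.0 CPM, and Col5a1 had 20.7, 16.0 and 15.5 CPM. The log2FC of Col5a3 was -0.47 (95% interval -0.72 to -0.21, adjusted p = 0.132), and that of Col5a1 was -0.29 (-0.61 to 0.03, adjusted p = 0.38) with overlapping libraries. Col1a1 had 98.4, 72.4 and 77.9 CPM and Col1a2 had 146, 117 and 104 CPM, all below the lowest WT Cold library. Their log2FC values were -0.38 (95% interval -0.70 to -0.07) and -0.34 (-0.62 to -0.05), with adjusted p of 0.245 and 0.253.

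For the common type VI chains, Col6a1 had 45.6, 45.8 and 36.3 CPM in that group, Col6a2 had 40.3, 43.6 and 33.8 CPM, and Col6a3 had 33.7, 33.8 and 28.9 CPM, with library C lowest in all 3. Log2FC values against WT Cold were -0.50, -0.55 and -0.56, with adjusted p of 0.133, 0.18 and 0.14 from limma and of 0.0234, 0.0442 and 0.0174 from DESeq2. Col6a6 had 0.579, 0.313 and 0.517 CPM (log2FC -0.78, SE 0.37, adjusted p = 0.37). Col6a4 (0.687, 0.209 and 0.554 CPM) and Col6a5 (0.398, 0.174 and 0.370 CPM) overlapped with WT Cold.

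Col4a1 and Col4a2 lay between the WT groups in CPM. Col4a1 had 435, 454 and 467 CPM and Col4a2 had 307, 308 and 311 CPM in the libraries labelled GCN2 KO Cold, values above every WT RT library and below every WT Cold library in CPM, though they overlapped with WT Cold C once divided by size factors. Against WT Cold the log2FC values were -0.27 (95% interval -0.54 to 0.01, adjusted p = 0.34) for Col4a1 and -0.22 (-0.49 to 0.04, adjusted p = 0.41) for Col4a2, so these intervals hold both no difference and a lower level. Col4a5 (3.51, 2.85 and 2.59 CPM), Col4a3 (1.52, 1.46 and 1.07 CPM), Col4a4 (0.796, 1.08 and 1.03 CPM) and Col4a6 (1.34, 0.487 and 0.296 CPM) overlapped with WT Cold.

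Among the other members, Col11a2 had the smallest p. It had 6.18, 6.64 and 6.36 CPM in the libraries labelled GCN2 KO Cold, 2.99 to 3.70 CPM in WT Cold and 2.07 to 3.77 CPM in WT RT. Against WT Cold its log2FC was 1.003 (95% interval 0.64 to 1.37, adjusted p = 0.0579 from limma and 0.00045 from DESeq2). Col28a1 had 1.66, 1.08 and 0.850 CPM, below the 2.54 CPM of the lowest WT Cold library (log2FC -1.36, 95% interval -2.09 to -0.64, adjusted p = 0.126 from limma and 0.0142 from DESeq2). Of 8 Schwann cell markers, 1 was lower in this comparison with limma and with DESeq2, against 0.405% and 3.22% of all genes called. Of the 8, 3 had an unadjusted p under 0.05 from limma, against 15.3% of all genes, and the median log2FC was -0.28. Summed over the 8 markers, the level was 209 to 251 CPM in WT Cold and 184 to 245 CPM in GCN2 KO Cold, and its part in the Col28a1 values was not tested. Col15a1 had 15.6, 14.0 and 10.9 CPM and Col18a1 27.6, 37.1 and 36.7 CPM, with log2FC values of -0.18 (adjusted p = 0.63) and 0.09 (adjusted p = 0.90) against WT Cold.

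Against WT RT, the libraries labelled GCN2 KO Cold had lower chains of types I, III and V and lower Col6a1, Col6a2 and Col6a3, with larger fold changes than WT Cold had, and the same 2 type IV chains higher. This comparison shares its WT RT libraries with WT Cold vs WT RT, so its values are set beside the earlier ones without a test between them. At an adjusted p under 0.05 from limma, 17 of 33 collagen genes differed, 4 higher and 13 lower, against 34.2% of all genes (16.4% higher and 17.8% lower). With an absolute log2FC over 1 there were 9, 1 higher and 8 lower, against 10.6% of all genes (3.01% higher and 7.58% lower). The median over the 33 genes was -0.28, beside 0.01 for all genes, and 19 of them had a fold change below 0, against 49.2%. This median was -0.49 with CPM scaling or with all 9 libraries in the fit, where that of all genes was -0.19, and -0.11 without GCN2 KO Cold C. Libraries did not overlap for 5 members that were higher and 15 that were lower, against 23.7% and 25.5% of all genes.

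Col5a3 (log2FC -2.21, SE 0.19, adjusted p = 0.000219) and Col15a1 (-2.11, SE 0.13, adjusted p = 7.57e-05) fell furthest, as they did in WT Cold at -1.74 and -1.92. Col6a3 fell by 1.38 on the log2 scale, Col6a2 by 1.31 and Col6a1 by 1.18, beside -0.82, -0.76 and -0.68 in WT Cold. Standard errors for these chains were 0.10 and adjusted p from 0.000112 to 0.00022. Col3a1 (-1.08), Col5a2 (-1.01), Col5a1 (-0.96), Col1a2 (-0.81) and Col1a1 (-0.73) also fell, beside -0.60, -0.47, -0.67, -0.47 and -0.34 in WT Cold. Their SEs were 0.09 to 0.12 and their adjusted p from 0.00022 to 0.00233, and in each the libraries of the groups did not overlap.

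Of the lower genes 3 had not passed in WT Cold. Col6a6 had a log2FC of -1.22 (SE 0.33, adjusted p = 0.022), a call that was lost without GCN2 KO Cold B or any WT RT library (adjusted p up to 0.0746). Col14a1, at 7.88, 7.40 and 7.54 CPM in the libraries labelled GCN2 KO Cold, had -0.83 (SE 0.13, adjusted p = 0.00243). Col27a1, at 28.4, 22.8 and 26.3 CPM, had -0.42 (SE 0.10, adjusted p = 0.0127) but an adjusted p of 0.0621 with all 9 libraries in the fit. On the higher side, Col11a2 had a log2FC of 1.52 (SE 0.27, adjusted p = 0.00353). Col4a2 had 0.53 (SE 0.08, adjusted p = 0.00218) and Col4a1 0.41 (SE 0.09, adjusted p = 0.0105), beside 0.75 and 0.67 in WT Cold. Both values were lower with CPM scaling or all 9 libraries in the fit, where Col4a2 had 0.32 and kept its call, with an adjusted p of 0.0476 in the fit of all 9. With CPM scaling Col4a1 stayed higher at 0.21 but lost its call (adjusted p = 0.067), and with all 9 libraries in the fit its adjusted p was 0.195. Col13a1, a transmembrane collagen known at the neuromuscular junction, had 2.27, 2.02 and 1.71 CPM in WT RT, 2.00, 3.37 and 2.85 in WT Cold and 3.94, 2.503 and 2.55 in GCN2 KO Cold. Its log2FC of 0.76 (SE 0.24, adjusted p = 0.0431) lost its call under CPM scaling (0.121), with all 9 libraries (0.124) and without any of GCN2 KO Cold A, GCN2 KO Cold C or the WT RT libraries (up to 0.123). Col12a1 (0.39, adjusted p = 0.15) and Col28a1 (-0.41, adjusted p = 0.34), which had been higher in WT Cold, did not pass.

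The balance between classes within a library does not depend on scaling between libraries. Fibrillar collagens made up 43.6, 41.6 and 41.2% of collagen CPM per kb in WT RT, 29.4, 26.4 and 30.6% in WT Cold and 30.3, 25.5 and 25.8% in GCN2 KO Cold. Basement membrane collagens made up 30.7, 32.4 and 34.0% in WT RT, 55.5, 59.3 and 48.9% in WT Cold and 53.8, 57.5 and 59.7% in GCN2 KO Cold. WT RT was thus apart from both cold groups in these shares, and the cold groups overlapped. Beaded filament collagens held 16.2 to 17.4% in WT RT, 8.99 to 13.2% in WT Cold and 8.09 to 9.89% in GCN2 KO Cold. The multiplexins held 6.05 to 6.23%, 2.27 to 4.16% and 3.25 to 3.99%. Summed over all collagen genes listed for a group, the level was 2188, 2265 and 2228 CPM in WT RT, 2084, 2041 and 1814 CPM in WT Cold and 1524, 1444 and 1415 CPM in GCN2 KO Cold, and without Col4a1 and Col4a2 it was 1551 to 1610, 926 to 1030.4 and 637 to 782 CPM.

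**Figure D4:**
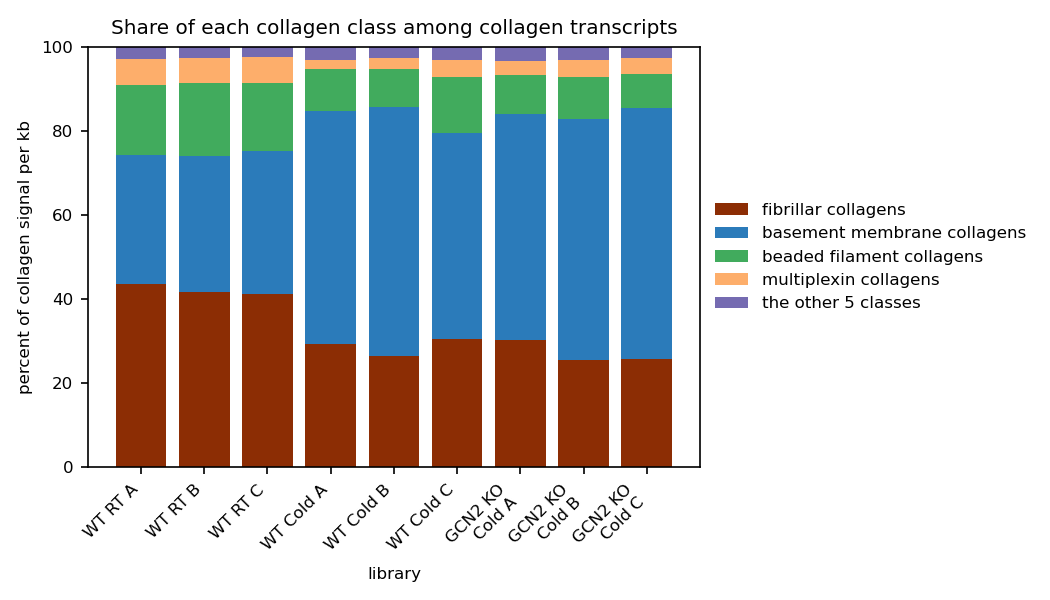
Percent of the summed collagen signal per kilobase of exon held by each collagen class in each of the 9 libraries, as bars that add up to 100. Basement membrane collagens hold 30.7 to 34.0% in WT RT and 48.9 to 59.7% in the cold libraries, while fibrillar collagens hold 41.2 to 43.6% and 25.5 to 30.6%.

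Some ratios between chains of the same type varied little and others moved. Per kilobase, Col1a1 over Col1a2 was 1.21 ± 0.0950 in WT RT, 1.33 ± 0.0969 in WT Cold, beside 1.29 ± 0.123 for GCN2 KO Cold (SD, n = 3 each). Col6a1 over Col6a2 was 1.88 ± 0.0459, 2.00 ± 0.191 and 2.06 ± 0.0790. Within type V, Col5a3 over Col5a1 was 2.07 to 4.15 in WT RT, 1.15 to 1.72 in WT Cold and 1.07 to 1.46 in GCN2 KO Cold. Between types, Col4a1 over Col3a1 was 0.967, 1.17 and 1.22 in WT RT, 2.73, 3.11 and 2.30 in WT Cold and 2.61, 3.37 and 3.46 in GCN2 KO Cold. Col15a1 over Col18a1 moved the other way, from 1.48 to 1.62 in WT RT to 0.412 to 0.666 in WT Cold and 0.328 to 0.625 in GCN2 KO Cold. Col3a1 over Col1a1 was 1.87 to 2.08, 1.46 to 1.77 and 1.49 to 1.64.

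**Figure D5:**
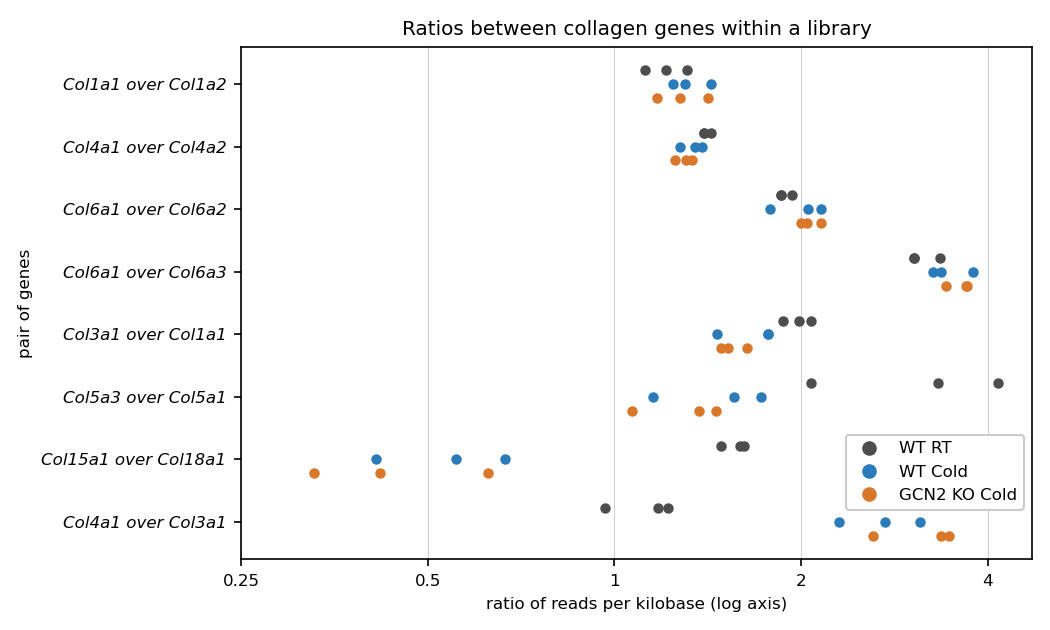
Ratio of CPM per kilobase between pairs of collagen genes on a log axis, a point per library. The pairs Col1a1 over Col1a2, Col4a1 over Col4a2 and Col6a1 over Col6a2 stay within 1.12 to 2.15 in all libraries, with Col4a1 over Col4a2 slightly lower in the cold libraries (1.25 to 1.39) than in WT RT (1.39 to 1.43), and Col5a3 over Col5a1, Col15a1 over Col18a1 and Col4a1 over Col3a1 are apart between WT RT and the cold groups by wider gaps.

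Genes that make, modify and remove collagen were counted over whole lists, and these counts stand beside calls for 27.7% of all genes in WT Cold vs WT RT (13.6% higher and 14.1% lower), 34.2% in GCN2 KO Cold vs WT RT (16.4% and 17.8%) and 0.405% in GCN2 KO Cold vs WT Cold (15.3% at an unadjusted p under 0.05). Of 31 tested genes for collagen synthesis and maturation, 4 rose and 6 fell in WT Cold vs WT RT, with a median log2FC of -0.18 and a share of calls near that of all genes. Plod2 (log2FC 0.86), which hydroxylates telopeptide lysines, and Lox (0.80), the lysyl oxidase that starts crosslinking, rose. Serpinh1 (-0.82), the collagen chaperone HSP47, and Crtap (-0.74), a partner of the prolyl hydroxylase P3H1, fell. Against WT RT, 3 rose and 12 fell in GCN2 KO Cold, with Tll1 (-1.97), Adamts14 (-0.97), Loxl3 (-0.92) and Serpinh1 (-0.87) furthest. None of 30 passed in GCN2 KO Cold vs WT Cold, where 7 had an unadjusted p under 0.05 from limma and 0 passed with DESeq2, and the list median was -0.26.

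Of 16 genes for collagen breakdown, 2 rose and 3 fell in WT Cold vs WT RT, also near the 27.7% of all genes, with a median of -0.26. Timp4, a metalloproteinase inhibitor, was the largest rise (1.42), and Mmp9 (-1.02), Mrc2 (-0.76), an endocytic collagen receptor, and Fap (-0.63) fell. Against WT RT, 1 rose and 9 fell in the group labelled GCN2 KO Cold, with Timp4 at 1.55 and Mmp9, Mmp3 and Ctsk at -1.86, -1.25 and -1.14. Against WT Cold, none of 15 passed with limma and 3 were lower with DESeq2, which called 3.22% of all genes. An unadjusted p under 0.05 was reached by 8 of the 15, against 15.3% of all genes, 14 had a fold change below 0 and the median was -0.53. Collagen receptors fell in 3 of 8 genes in WT Cold (Lair1 -2.28, Itga11 -1.06 and Itga1 -0.62) and in 5 of 8 in GCN2 KO Cold, both against WT RT, with no rise in either, and none passed in GCN2 KO Cold vs WT Cold with limma or DESeq2, where 1 had an unadjusted p under 0.05.

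Matrix partners of the collagens moved in both directions against WT RT. Their counts stand beside the same 27.7% and 34.2% of all genes called in WT Cold vs WT RT and GCN2 KO Cold vs WT RT. The median log2FC in WT Cold vs WT RT was -0.02 for basement membrane partners, -0.05 for interstitial partners and 0.08 for TGF-beta signalling genes. Among 16 basement membrane partners, 3 rose and 5 fell in WT Cold vs WT RT, with the laminin chain Lamb3 (2.00) higher and Lama4 (-0.95) and the nidogen Nid2 (-0.86) lower, so that the laminin and nidogen genes did not all go with Col4a1 and Col4a2. Of the same list, 1 rose and 6 fell in GCN2 KO Cold vs WT RT, Lamb3 at 2.596 and Lama4, Nid2 and Nid1 at -1.19, -1.13 and -0.56. Among 22 interstitial partners, 2 rose and 5 fell in WT Cold vs WT RT, with elastin (Eln, 1.20) higher and fibrillin 1 (Fbn1, -0.84), Lum (-0.58) and Prelp (-0.51) lower. Of these, 1 rose (Eln, 1.04) and 10 fell in GCN2 KO Cold vs WT RT, with Fbn1 at -1.39, Fbln2 at -1.03 and Lum at -0.77. TGF-beta signalling genes, a main inducer pathway of fibrillar collagens, rose in 3 and fell in 5 of 15 in WT Cold vs WT RT. Smad7 (0.74) was higher, and Ltbp2 (-1.21) and Tgfb1 (-0.66) lower. Against WT RT, 1 rose and 6 fell in GCN2 KO Cold, with Tgfbr2 (-0.96) and Tgfb1 (-0.83) furthest. None of these 3 lists had a gene at an adjusted p under 0.05 from limma in GCN2 KO Cold vs WT Cold. There 5, 10 and 5 of their genes had an unadjusted p under 0.05, against 15.3% of all genes. DESeq2 gave 2, 3 and 2, against 3.22%. Fold changes were below 0 in 14 of 16, 21 of 22 and 14 of 15 genes, against 50.5% of all genes, with medians of -0.27, -0.30 and -0.22.

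Markers of cells that can make collagen, and of other cells of the tissue, were summed and counted in the same way. Their counts are again to be read against 27.7% of all genes called in WT Cold vs WT RT (13.6% higher and 14.1% lower). In GCN2 KO Cold vs WT RT the share was 34.2% (16.4% higher and 17.8% lower). In bulk tissue, fewer cells of a type and less RNA per cell cannot be told apart. The 12 fibroblast markers summed to 680.2 to 908 CPM in WT RT, 602 to 684 in WT Cold and 433 to 547 in GCN2 KO Cold, with 5 lower and 0 higher in WT Cold vs WT RT and 8 lower in GCN2 KO Cold vs WT RT. Fbn1 and Lum are in this list and also among the interstitial partners above, so the counts of both lists share genes. The 10 endothelial markers summed to 749.7 to 815 CPM in WT RT, 904 to 1074 in WT Cold and 744 to 863 in GCN2 KO Cold, with 4 higher and 0 lower in WT Cold vs WT RT and 4 higher and 2 lower in GCN2 KO Cold vs WT RT. The 9 macrophage markers summed to 446 to 707 CPM, 225 to 338 and 170.4 to 249 CPM, with 7 and then 9 lower against WT RT. Pericyte and smooth muscle markers overlapped between all groups (699 to 1227, 872 to 1213 and 814 to 1350.0 CPM), with at most 2 of 10 passing. Schwann cell markers rose in 1 of 8 in WT Cold vs WT RT, and brown adipocyte markers rose in 4 and fell in 1 of 9, while against WT RT 2 and 6 rose and 1 and 0 fell in GCN2 KO Cold. No fibroblast, endothelial, mural, cartilage, macrophage or brown adipocyte marker passed with limma in GCN2 KO Cold vs WT Cold. With DESeq2, 1 fibroblast marker was lower there and 3 brown adipocyte markers were higher, and 5, 2, 2, 0, 4 and 5 markers of these lists had an unadjusted p under 0.05 from limma. Of all genes in that comparison, limma called 0.405% and DESeq2 3.22%, and 15.3% had an unadjusted p under 0.05 from limma. Cartilage and tendon markers were listed for 3 of 9 genes and summed to at most 11.5 CPM.

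The 18 skeletal muscle markers summed to 2995 to 3643 CPM in WT RT, 2833 to 4753 in WT Cold and 406 to 1654 in GCN2 KO Cold. Library C of GCN2 KO Cold had the lowest sum for this list. Of this list 1 (Myh7, log2FC -3.34, adjusted p = 0.0483) passed in GCN2 KO Cold vs WT Cold, all 18 had an unadjusted p under 0.05 (15.3% of all genes), and the median was -1.96, while DESeq2 gave 6 lower (3.22% of all genes called). Against WT RT 16 were lower with limma (17.8% of all genes) and 10 with DESeq2, and in WT Cold vs WT RT 3 were higher. No marker of any list was at 0 in any library. The part of these cell types in the collagen values was not tested. Leaving out GCN2 KO Cold C gave a median of -0.23 over the collagen genes against WT Cold, with 0 at an adjusted p under 0.05, and 17 genes at that threshold against WT RT, where 28.6% of all genes were called and the median moved from -0.28 to -0.11.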

How the data were processed

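Brown adipose tissue RNA of 9 mice was read from the 3 deposited tables. Per the submitters' processing notes and the study's methods, reads were trimmed with Trimmomatic 0.36, aligned with STAR 2.5.2b to GRCm39 and counted over exons with featureCounts (Subread 1.5.2). The authors deposited a signal per gene and library, the read count divided by a DESeq2 size factor set within a table, beside their own fold changes and p-values, which were not used. Whole reads were recovered for 100% of values (tolerance 0.001). Groups of library codes followed from the tables that hold them. Whether the libraries keep strand is not stated in the sources used here. In GENCODE M21, exons of 9 members overlap exons of genes outside the collagen set, and such reads cannot be told apart. The longest overlap of single exons was 14 to 289 bases per pair of genes. Overlaps between collagen genes were not counted.

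Each table was fitted with limma 3.58.1 (R 4.3.3) on log2(value + 1) with trend = TRUE, and p-values were adjusted by Benjamini-Hochberg over all genes. DESeq2 1.42.0 and edgeR 4.0.16 were run on recovered reads, the scripts were tested on simulated data, and pandas made the summaries. CPM per kb used exon lengths of GENCODE M21, in which 16900 of 16937 genes were found, and no correction was made for sex, which the labels do not give. Values in each library were given for collagen genes at an adjusted p under 0.05 in any comparison, the 8 with the highest mean CPM and the chains of types IV, V and VI, and for each other list up to 4 genes at that threshold with the largest absolute log2 fold change. Col7a1, Col11a1 and Col18a1 were added after their values were seen, and some genes that this rule names are not reported here. The lists covered collagen synthesis and maturation, breakdown, receptors, basement membrane and interstitial partners, TGF-beta signalling and markers of fibroblasts, endothelium, mural cells, Schwann cells, skeletal muscle, cartilage and tendon, macrophages and brown adipocytes. The members and lists were chosen with earlier results of these data known. The precision is limited by 3 mice per group, and for genes under 1 CPM also by counting.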

Additional observations from a re-analysis of the deposited data

How the results depend on the processing

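Over 17 settings (pseudocounts of 0.25 and 10, a filter at a mean of 50 normalized reads, no trend, DESeq2, edgeR, CPM scaling, a joint fit of all 9 libraries, and leaving out each library in turn), the counts of collagen genes in either direction in WT Cold vs WT RT and GCN2 KO Cold vs WT RT stayed within 1.5 times of the reported ones. The 4 higher genes became 2 in WT Cold vs WT RT with all 9 libraries, without WT Cold A and without WT Cold B, and 2 in GCN2 KO Cold vs WT RT with CPM and with all 9 libraries. In GCN2 KO Cold vs WT Cold, DESeq2 gave 8 genes at an adjusted p under 0.05 and 2 with the fold limit, the fit of all 9 libraries gave 6 and 1, and edgeR and each left-out library gave 0. The cause was not tested. The median over collagen genes in WT Cold vs WT RT was -0.13 with CPM and -0.29 with 9 libraries, beside -0.08 for all genes in each. It was -0.36 with the filter, which left 24 genes. With a library left out it was from -0.19 (without WT RT B) to 0.15 (without WT Cold C). Without WT Cold C, the count in WT Cold vs WT RT was 17 of 35, with 34.0% of all genes called. In GCN2 KO Cold vs WT RT the median was -0.49 with CPM and -0.49 with 9 libraries, and from -0.38 (without GCN2 KO Cold A) to -0.11 (without GCN2 KO Cold C). Leaving out a library gave 10 to 17, 0 and 15 to 17 genes at an adjusted p under 0.05 in the 3 comparisons, while the share of all genes called was 17.4 to 34.0%, 0.0184 to 0.147% and 25.5 to 31.8%.

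Genes whose sign turned had not passed the adjusted threshold. Col18a1 passed in GCN2 KO Cold vs WT RT with CPM (-0.49, adjusted p = 0.016). Leaving out a library moved Col4a3 from -0.18 to 0.15 and Col4a4 from -0.18 to 0.40 in WT Cold vs WT RT. In GCN2 KO Cold vs WT Cold it moved Col12a1 from -0.27 to 0.046, Col18a1 from -0.13 to 0.36, Col7a1 from -0.11 to 0.29, Col27a1 from -0.37 to 0.23, Col4a3 from -0.0071 to 0.34, Col4a5 from -0.37 to 0.21, Col4a6 from -0.64 to 0.37, Col6a4 from -0.27 to 0.54 and Col6a5 from -0.85 to 0.085. Col4a6 was 0.19 with DESeq2, 0.19 with edgeR and 0.0034 with the pseudocount of 10, and with both CPM and 9 libraries Col6a4 was -0.041, Col18a1 -0.024 and Col7a1 -0.039. In GCN2 KO Cold vs WT RT, Col4a3 was -0.054 with CPM and with 9 libraries, and Col6a5 was -0.10 with DESeq2, -0.13 with edgeR and from -0.083 to 1.15 with a library left out. These are the genes described singly. Of the others, Col9a2, Col16a1, Col17a1 and Col20a1 also turned with a library left out in WT Cold vs WT RT, Col20a1 and Col23a1 in GCN2 KO Cold vs WT Cold, and Col8a1, Col9a2, Col16a1 and Col20a1 in GCN2 KO Cold vs WT RT. With a library left out, a group of 2 shared the spread of the other group. No paired analysis was possible because the columns carry no replicate numbers.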
